A study of Mus musculus with 6 samples.

Results

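The genes of the proteasome were followed in the radii and ulnae, the bones of the forearm, of newborn mutants of Tnni2, a troponin gene of fast skeletal muscle. Members were the genes whose symbol begins with Psm, then a letter from a to g and a number, taken from probe sets annotated with exactly 1 gene symbol, with the brightest probe set on average standing for a gene that had several. The rule found 41 genes of the 5780 named genes in the table. Of these, 15 encode subunits of the core particle, 9 of the base and 8 of the lid of the regulatory particle, 3 are assembly chaperones, 4 are activators and 1 is an inhibitor. The remaining match, Psme3ip1, encodes a protein that binds the activator Psme3 and is no subunit. Psma8, Psmb8, Psmb10, Psmb11, Psmd10, Psmg2, Psmg3 and Psmg4 were not analysed here.

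The samples were 3 from Tnni2del175k mutant mice and 3 from their wild-type littermates, all newborn and of strain 129sv. Total RNA of each was labelled and read on 1 Affymetrix whole-transcript array. The labels give neither the number of copies of the allele nor the sex of the mice, and do not say whether an array held 1 animal or several. The p-values therefore cover only the differences among these samples, some of which may be technical.

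The proteasome is the barrel-shaped protease that degrades proteins tagged with ubiquitin in the cytosol and nucleus. Its core particle stacks rings of alpha subunits, which form the gate, around rings of beta subunits, some of which carry the catalytic sites inside the chamber. The regulatory particle caps the core: the ATPases of its base unfold the substrate, and its lid removes the ubiquitin chain. In muscle and bone the proteasome turns over contractile and signalling proteins, and its inhibitors alter bone formation and resorption.

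Array medians lay between 45.5 and 47.8 intensity units on the mutant arrays and between 39.6 and 48.4 on the wild-type arrays. Wild-type replicate 1 stood apart: over all probe sets, its log2 intensity minus the mean of the remaining arrays had a median of -0.30. Tnni2 was at 133.8, 127.4 and 198.2 in mutant bone, against 101.5, 164.7 and 257.7 in wild-type bone. The labels do not say whether the allele alters the transcript's level, so these values do not check them. Of 7 osteoblast markers 6 were measured, among them Col1a1, Ibsp and Sp7, with a summed intensity of 7914 to 8843 on the mutant and 6933 to 8575 on the wild-type arrays. Skeletal muscle markers were bright as well (8 of 8 measured, summed intensity 4532 to 6040 in mutant and 3583 to 7151 in wild-type samples). Of 6 osteoclast markers 4 were measured, all with higher means in mutant bone (summed intensity 1177 to 1690 in mutant and 594.2 to 1028 in wild-type samples). Chondrocyte markers (7 of 7 measured) summed to 5447 to 6174 in mutant and 3908 to 6166 in wild-type samples, and the 2 measured of 7 erythroid markers to 135.3 to 467.6 in mutant and 112.4 to 252.3 in wild-type samples. No marker passed the test, and the part of these cells in the proteasome levels was not tested. In whole tissue, fewer cells of a type and less RNA per cell cannot be told apart.

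No proteasome gene passed the test between mutant and wild-type bone. The differences were small in every class: the largest were Psme4, an activator, at 0.56 on the log2 scale (1.47-fold), and Psmb9, an inducible core subunit, at -0.42 (0.745-fold). limma called 0 of 41 members and 0 of 8997 probe sets (0.0%) at an adjusted p of 0.05, and the smallest adjusted p among the members was 0.667. At an unadjusted p under 0.05 there was 1 member, Psme4, or 2.44% of the members, against 7.44% of all probe sets. Psme4 was higher in mutant bone, as were 5.74% of all probe sets at that threshold, and 0 members were lower, against 1.7%. The 95% intervals of the 41 differences lay between -0.98 and 1.05 on the log2 scale.

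All mutant arrays lay above all wild-type arrays in 4 members (Psme4, Psma6, Psmf1 and Psmc6), or 9.76%, against 9.18% of all probe sets. They lay below in 2 (Psmb5 and Psmb9), or 4.88%, against 3.89%. Both shares were close to those of the whole table. They refer to the intensities as deposited. With the median of all probe sets taken off each array, Psmf1 overlapped, while Psmb3, Psmc5, Psmd5 and Psmd9 also lay below. The share of all probe sets on that scale was not counted. Every probe set in the table reached 20 on at least 3 arrays. Psmc6 met this only through its mutant arrays, as 2 of its wild-type arrays lay under 20. Its lowest mutant array, at 20.15, lay next to its highest wild-type array, at 20.

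**Figure D1:**
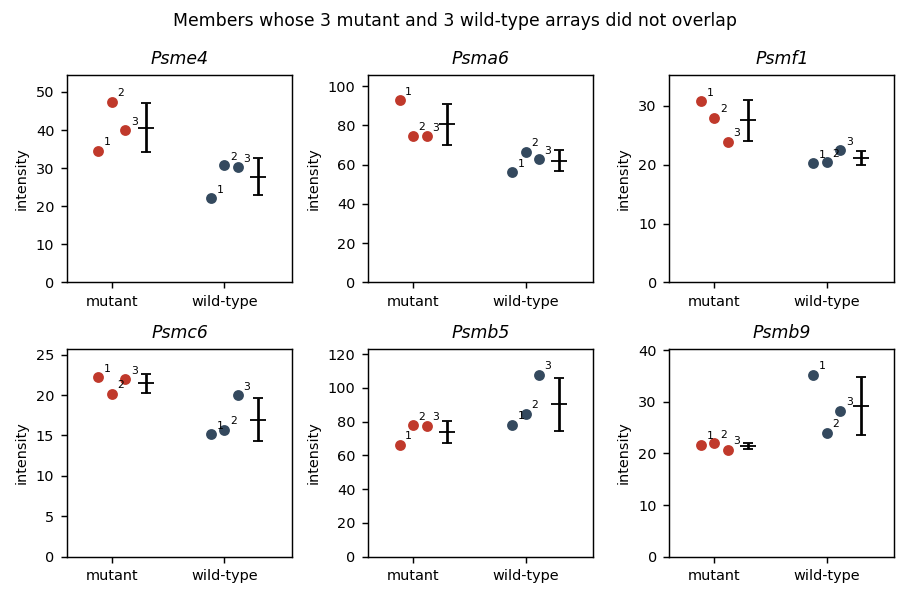
Intensity on each array (points, numbered by replicate) with the mean and SD of 3 arrays (bars). Shown are the 6 members whose mutant and wild-type arrays did not overlap in deposited intensity. Psme4, Psma6, Psmf1 and Psmc6 were above the wild-type range in mutant bone, Psmb5 and Psmb9 below it.

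The median subunit of the particle itself differed less than the median probe set. The absolute log2 difference had a median of 0.10 over the 32 core, base and lid subunits and of 0.20 over all probe sets, and 0 of the 32 subunits reached 0.5, against 1110 of 8997 probe sets (12.3%). Mean log2 intensity was higher in mutant bone for 19 of 32 subunits, against 56.7% of all probe sets. It was higher for 10 of 32 after median centring and 12 of 32 after quantile normalization. The share of all probe sets was not counted on these scales, but their median difference was negative on both. The median log2 difference of the 32 subunits was 0.036, beside 0.045 over all probe sets and 0.072 over all named genes. After median centring it was -0.020, beside -0.012 over all probe sets, and after quantile normalization -0.030, beside -0.019.

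**Figure D2:**
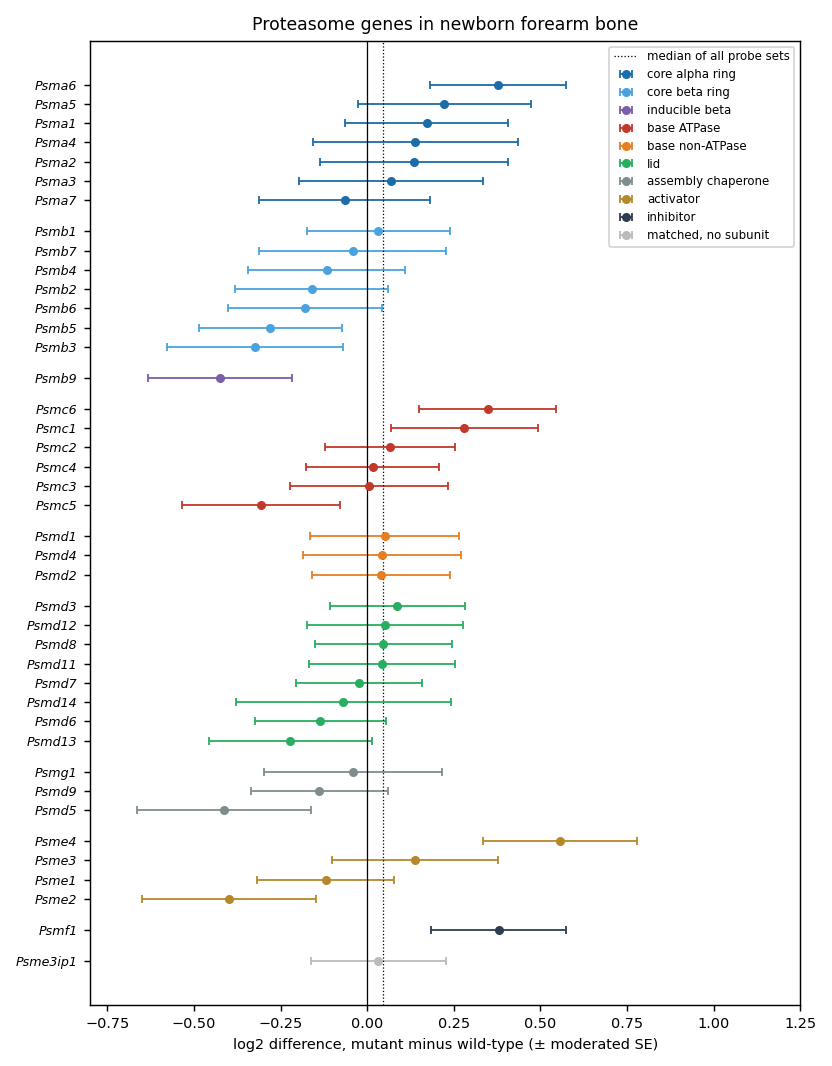
Log2 difference between mutant and wild-type bone, mutant minus wild-type, for each of the 41 genes (points, with the moderated SE of limma as bars; 3 arrays per group), ordered by class and coloured by it. The dotted line is the median of all probe sets (0.045). Most alpha ring points lie right of 0 and most beta ring points left of it, and 0 of the 41 passed the test; after median centring 6 of 7 alpha points still lie above 0, but 3 of 9 base points do.

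The promoters of Psme4, Psmb5 and Psmb9 are shown because these are the activator, the catalytic subunit and the inducible subunit whose groups did not overlap. Each runs from 250 bases before to 50 after the annotated start, 5′ to 3′ on the gene's strand, from RefSeq on GRCm38.p6. Capitals mark matches to the core of the antioxidant response element read by Nfe2l1 and its relatives (TGACNNNGC, in Psme4 and Psmb5) or to the CCAAT box (CCAAT, in Psmb9), on either strand.
Psme4 (chr11:30771525-30771824, plus strand): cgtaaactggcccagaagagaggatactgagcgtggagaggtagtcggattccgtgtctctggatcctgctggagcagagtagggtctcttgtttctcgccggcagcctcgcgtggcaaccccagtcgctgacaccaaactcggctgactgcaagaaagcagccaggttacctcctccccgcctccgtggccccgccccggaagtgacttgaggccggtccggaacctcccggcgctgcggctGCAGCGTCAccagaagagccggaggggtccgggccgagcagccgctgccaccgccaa
Psmb5 (chr14:54617946-54618245, minus strand): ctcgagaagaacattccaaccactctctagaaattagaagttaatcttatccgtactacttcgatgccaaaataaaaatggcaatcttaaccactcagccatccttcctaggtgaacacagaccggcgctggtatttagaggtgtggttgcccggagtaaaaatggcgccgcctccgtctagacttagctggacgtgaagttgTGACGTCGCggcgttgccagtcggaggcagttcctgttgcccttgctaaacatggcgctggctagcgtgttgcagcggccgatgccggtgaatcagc
Psmb9 (chr17:34187281-34187580, minus strand): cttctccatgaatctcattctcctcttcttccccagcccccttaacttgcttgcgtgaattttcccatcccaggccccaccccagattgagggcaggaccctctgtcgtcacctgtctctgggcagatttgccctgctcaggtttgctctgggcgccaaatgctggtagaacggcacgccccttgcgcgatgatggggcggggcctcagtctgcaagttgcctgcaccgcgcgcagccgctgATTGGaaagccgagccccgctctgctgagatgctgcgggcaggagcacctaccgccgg
The match in Psmb5 begins 47 bases before the start on the gene's strand. That in Psme4 begins 7 bases before it, on the opposite strand, and the CCAAT match in Psmb9 begins 8 bases before it, also on the opposite strand.

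RefSeq promoter windows were found for 35 of the 41 genes, 39 windows in all. The core of the antioxidant response element was present in 6 of them (15.4%), against 12.4% of 32851 windows of the same length, and the genes were Psmb5, Psmb6, Psmc6, Psmd12, Psmd9 and Psme4. Their log2 differences in mutant bone ran from -0.28 in Psmb5 to 0.56 in Psme4. The CCAAT box was present in 13 windows (33.3%), against 37.4% of all windows. The interferon-stimulated response element (TTTC, any 2 bases, TTTC) was present in 4 windows (10.3%), those of Psmb3, Psmd4, Psmd9 and Psme1, against 3.44% of all windows. Both strands were searched, no match shared bases with a match to another of these motifs, and a match says only that these letters are there.

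In the alpha ring, 6 of 7 genes had higher means in mutant bone, also after median centring and after quantile normalization, but 1 of 7 when wild-type replicate 1 was left out or when arrays were weighted, and 3 of 7 without mutant replicate 3. Psma6, one of the ring's structural subunits, had the smallest p in it. Its intensity was 92.7, 74.7 and 74.4 in mutant bone, against 56.1, 66.7 and 62.8 in wild-type bone. All 3 mutant arrays lay above all 3 wild-type arrays, with mutant replicate 1 the highest. The log2 difference was 0.38 ± 0.20 (SE, limma adjusted p = 0.709), and leaving out 1 array at a time gave values from 0.27 to 0.43. Psma5, the alpha subunit of next smallest p, was at 63.2, 52.8 and 64.6 in mutant bone, against 36.3, 57.6 and 64.9 in wild-type bone. Here the groups overlapped, and wild-type replicate 1 alone was low. The log2 difference of 0.22 ± 0.25 (SE, limma adjusted p = 0.828) was at -0.028 without that array. The other alpha genes were Psma1 (0.17), Psma4 (0.14), Psma2 (0.14), Psma3 (0.069) and Psma7 (-0.065), with overlapping groups in each.

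The constitutive beta ring lay on the other side, with 6 of 7 means lower in mutant bone, 7 of 7 after median centring or quantile normalization, 6 of 7 without wild-type replicate 1, and 4 of 7 without wild-type replicate 3. Psmb5 carries the chymotrypsin-like site, the main target of proteasome inhibitor drugs. Psmb5 was at 66.3, 77.7 and 77.5 in mutant bone, against 78.2, 84.8 and 107.8 in wild-type bone. The groups did not overlap, though mutant replicates 2 and 3 lay less than 1 intensity unit below the lowest wild-type array. The log2 difference was -0.28 ± 0.21 (SE, limma adjusted p = 0.754) and -0.145 without wild-type replicate 3.

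Psmb3, a beta subunit without a catalytic site, was at 101.1, 99.0 and 100.9 in mutant bone, against 100.7, 106.6 and 184.4 in wild-type bone. The mutant arrays were close together. The difference was -0.32 ± 0.25 (log2, SE; limma adjusted p = 0.767), and -0.046 without wild-type replicate 3. With the median of all probe sets taken off each array, the log2 deviations of Psmb3 were -0.17, -0.19 and -0.23 in mutant bone. In wild-type bone they were 0.090, -0.13 and 0.65. Psmb6, with the caspase-like site, was at 73.2, 73.8 and 91.6 in mutant bone, against 77.7, 81.3 and 113.8 in wild-type bone, a log2 difference of -0.18 ± 0.22 that was -0.0063 without wild-type replicate 3. Psmb7, with the trypsin-like site, was at 130.2, 103.2 and 148.4 in mutant bone, against 90.5, 139.4 and 172.5 in wild-type bone. The wild-type arrays spanned all the mutant ones (log2 difference -0.043 ± 0.27), and its sign turned without wild-type replicate 3 (0.16). Psmb2 (-0.16), Psmb4 (-0.12) and Psmb1 (0.032) had overlapping groups too, and Psmb1 was at -0.024 after median centring and -0.037 after quantile normalization.

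The inducible beta subunits replace the constitutive catalytic ones in cells exposed to interferon and in immune cells. Psmb9, which takes the place of Psmb6, was the only one measured here. Psmb9 was at 21.7, 22.0 and 20.8 in mutant bone, against 35.2, 24.1 and 28.3 in wild-type bone. Every mutant array lay below every wild-type array, and wild-type replicate 1, the lowest array for 50% of all probe sets, was the highest for this one. The log2 difference was -0.42 ± 0.21 (SE, limma adjusted p = 0.698), and -0.28 without wild-type replicate 1. All mutant values were within 2 units of the intensity of 20 that every probe set in the table reached on at least 3 arrays. How the background was handled is not stated, and it bears on the size of a difference at this level.

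Relative to its constitutive partner on the same array, the log2 ratio of Psmb9 to Psmb6 was -1.75, -1.75 and -2.14 in mutant bone, against -1.14, -1.76 and -2.01 in wild-type bone. Only wild-type replicate 1 stood above the rest. The mean ratios differed by -0.25 (exact two-sided permutation test over the 20 splits, p = 0.6; with 3 arrays a group this test cannot go below 0.1). Of 10 markers of blood and immune cells, 6 were measured (Cd68, Lyz2, Csf1r, Laptm5, Tyrobp and Irf8), of which 5 had higher means in mutant bone. Their summed intensity was 425.3 to 484.9 on the mutant arrays and 294.4 to 445.2 on the wild-type arrays, and their part in the level of Psmb9 was not tested.

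In the base, 8 of 9 genes had a higher mean log2 intensity in mutant bone. The count was 3 of 9 after median centring, 4 of 9 after quantile normalization and 3 of 9 without wild-type replicate 1. The ATPases, which form the ring that unfolds substrates and threads them into the core, had the wider range of differences. Psmc6 was at 22.2, 20.2 and 22.0 in mutant bone, against 15.2, 15.7 and 20 in wild-type bone. The groups did not overlap, but 2 of the wild-type arrays lay under 20. The log2 difference was 0.35 ± 0.20 (SE, limma adjusted p = 0.712). Psmc5 went the other way, at 58.7, 66.8 and 84.4 in mutant bone, against 68.6, 94.8 and 96.2 in wild-type bone. Mutant replicate 3 lay above wild-type replicate 1 alone, and the log2 difference was -0.31 ± 0.23 (SE, limma adjusted p = 0.754). With the median of all probe sets taken off each array, the mutant values of Psmc5 (-0.41, -0.21 and 0.057) lay below the wild-type ones (0.083, 0.25 and 0.26). Psmc1 was at 0.28, Psmc2 at 0.066, and Psmc4 (0.016) and Psmc3 (0.0046) turned negative after median centring (-0.040 and -0.052) and quantile normalization (-0.042 and -0.046).

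The 3 non-ATPase subunits of the base had differences close to 0. Psmd1, a scaffold of the base, was at 96.4, 106.6 and 124.9 in mutant bone, against 85.4, 112.2 and 120.6 in wild-type bone (log2 difference 0.050 ± 0.22). Psmd2, a scaffold that docks carriers of ubiquitinated proteins, was at 171.0, 188.8 and 167.8 in mutant bone, against 144.8, 181.0 and 190.4 in wild-type bone (0.040 ± 0.20). Psmd4, a receptor for ubiquitin chains, was at 34.3, 39.6 and 36.6 in mutant bone, against 26.8, 39.8 and 42.6 in wild-type bone (0.042 ± 0.23). In all 3 the wild-type range enclosed most of the mutant values, wild-type replicate 1 was the lowest array, and the sign turned after median centring, to -0.0061 for Psmd1, -0.017 for Psmd2 and -0.014 for Psmd4. After quantile normalization it turned for Psmd2 (-0.017) and Psmd4 (-0.020).

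In the lid, 4 of 8 genes had higher and 4 lower means in mutant bone, and 1 of 8 was higher after median centring, 2 of 8 after quantile normalization and 0 of 8 without wild-type replicate 1. Psmd14, the deubiquitinase that cuts the chain from the substrate, was at 21.4, 16.1 and 22.7 in mutant bone, against 12.9, 23.3 and 30.0 in wild-type bone. Among the 32 subunits it had the largest spread within groups, with 1 array under 20 in each group. The log2 difference of -0.069 ± 0.31 (SE, limma adjusted p = 0.966) was at 0.20 without wild-type replicate 3. Psmd13, a structural lid subunit, was at 28.2, 23.4 and 29.6 in mutant bone, against 29.4, 25.3 and 41.8 in wild-type bone. The groups overlapped, and the difference of -0.22 ± 0.24 (log2, SE) was at -0.016 without wild-type replicate 3. Psmd6, another structural lid subunit, was at 28.7, 28.9 and 26.4 in mutant bone, against 28.6, 29.3 and 34.5 in wild-type bone (-0.14 ± 0.19). Psmd7, the partner of Psmd14, had the smallest spread within groups among the 41, with a mean of 90.2 ± 0.95 in mutant and 91.7 ± 4.64 in wild-type bone (SD, n = 3 each). The remaining lid genes were Psmd3 (0.086), Psmd12 (0.052), Psmd8 (0.046) and Psmd11 (0.042), with overlapping groups. Psmd12, Psmd8 and Psmd11 lay at -0.0044, -0.010 and -0.014 after median centring.

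Psme4 had the largest difference of any member. It encodes a large activator that caps the core without ATPases and is known for the degradation of acetylated histones. Psme4 was at 34.5, 47.5 and 39.95 in mutant bone, against 22.1, 30.8 and 30.2 in wild-type bone. All mutant arrays lay above all wild-type arrays. The log2 difference was 0.56 ± 0.22 (SE, 95% interval 0.059 to 1.05, limma adjusted p = 0.667). Leaving out 1 array at a time gave 0.40 to 0.67, and after median centring and quantile normalization it was 0.50 and 0.49.

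Psme1 and Psme2 encode the partners of the interferon-inducible activator ring. Psme2 was at 18.4, 15.9 and 27.1 in mutant bone, against 25.1, 22.6 and 31.9 in wild-type bone. Mutant replicate 3 lay inside the wild-type range and the other mutant arrays below it, both under 20. The log2 difference was -0.40 ± 0.25 (SE, limma adjusted p = 0.725). Psme1 was at -0.12 ± 0.20, and Psme3, a nuclear activator, at 0.14 ± 0.24, which was -0.040 without wild-type replicate 1. Psmf1, an inhibitor of the core particle in the test tube, was at 30.7, 28.0 and 23.9 in mutant bone, against 20.3, 20.5 and 22.5 in wild-type bone. The groups did not overlap, and mutant replicate 3 was the closest to the wild-type arrays. With the median of all probe sets taken off each array they did overlap, mutant replicate 3 (-0.085) lying below wild-type replicate 1 (0.0047). The difference was 0.38 ± 0.19 (log2, SE; limma adjusted p = 0.709).

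All 3 measured assembly chaperones had lower means in mutant bone, also after median centring and quantile normalization. Psmd5 and Psmd9 help to build the base and leave before the particle is complete. Psmd5 was at 16.5, 15.3 and 20.7 in mutant bone, against 17.1, 24.0 and 30.3 in wild-type bone, with mutant replicate 3 above the lowest wild-type array. The difference was -0.41 ± 0.25 (log2, SE; limma adjusted p = 0.723). It was -0.63 without wild-type replicate 1 and -0.22 without wild-type replicate 3. Psmd9 was at 20.4, 21.9 and 24.6 in mutant bone, against 21.4, 25.2 and 27.1 in wild-type bone (-0.14 ± 0.20). Psmg1, which guides assembly of the alpha ring, was at -0.041 ± 0.26 and turned to 0.13 without wild-type replicate 3. Psme3ip1 was at 21.5, 25.1 and 21.3 in mutant bone, against 24.99, 20.6 and 20.9 in wild-type bone (0.032 ± 0.19), and turned to -0.025 after median centring and -0.033 after quantile normalization.

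Set side by side, the core, base and lid had median log2 differences of -0.043, 0.042 and 0.0094, and of -0.099, -0.014 and -0.047 after median centring. On single arrays the median deviation of the core minus that of the base was -0.076, -0.19 and 0.034 in mutant bone, against -0.067, -0.11 and 0.17 in wild-type bone (log2). For the core minus the lid it was -0.14, -0.082 and 0.10 in mutant bone, against -0.17, -0.083 and 0.12 in wild-type bone. For the base minus the lid it was -0.062, 0.11 and 0.067 in mutant bone, against -0.11, 0.029 and -0.050 in wild-type bone. In all 3 pairs of classes the mutant and wild-type arrays overlapped, and the mean distances differed between the groups by -0.075, 0.0063 and 0.082, less than the SD of either group for core against base and core against lid. For base against lid the SD was 0.090 on the mutant and 0.069 on the wild-type arrays. Within the core, the alpha ring had a median difference of 0.14 and the constitutive beta ring one of -0.16. The median deviation of the alpha genes minus that of the beta genes was 0.18, 0.083 and 0.11 on the mutant arrays, against -0.34, 0.074 and -0.21 on the wild-type arrays (log2). These values did not overlap, but wild-type replicate 2 lay next to mutant replicate 2. The rings were made classes after the data were seen, so this separation is a description only. The median difference of the alpha ring was -0.033 with wild-type replicate 1 left out, -0.083 with mutant replicate 3 left out and -0.15 when arrays were weighted, and that of the beta ring was -0.28, -0.27 and -0.36 under the same changes. Without wild-type replicate 3 the alpha ring was at 0.37 and the beta ring at -0.0063.

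**Figure D3:**
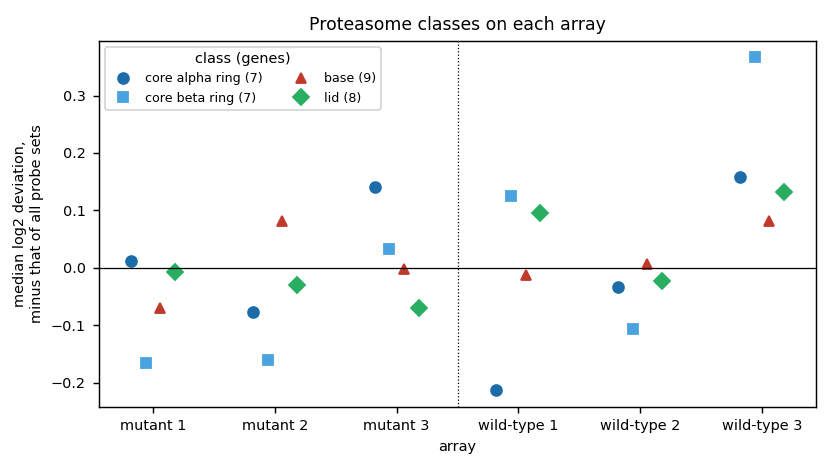
Median log2 deviation of each class on each array, relative to each gene's mean over the 6 arrays and to the median of all probe sets on that array (class sizes in the legend). On wild-type replicate 3 all 4 classes lie above 0 and the beta ring is highest at 0.37. On the mutant arrays the classes lie between -0.17 and 0.14.

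The subunits tended to be highest on the same array. Wild-type replicate 3 was the highest of the 6 arrays for 21 of 32 subunits (65.6%), against 21.1% of all probe sets, and after median centring for 18 of 32 (56.2%), against 15.9%. Wild-type replicate 1 was the lowest for 19 of 32 (59.4%), against 50% of all probe sets. After median centring that array was the lowest for 7 of 32 (21.9%), against 28.6%. The median within-group SD of a subunit was 0.14 on the mutant and 0.27 on the wild-type arrays (log2), against 0.22 and 0.30 over all probe sets.

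Of 8 marker lists, 2 were also highest on wild-type replicate 3, those of skeletal muscle and cell division. Relative to all probe sets, the 8 skeletal muscle markers stood at -0.20, -0.10 and 0.12 on the mutant arrays and at -0.28, 0.056 and 0.45 on the wild-type arrays (median log2 deviation). Cell division markers (8 of 10 measured, among them Mki67, Top2a and Pcna) stood at -0.37, -0.48 and 0.053 on the mutant arrays and at 0.30, -0.084 and 0.55 on the wild-type arrays. Epidermal markers (6 of 8 measured, among them Krt5 and Krt14) were at -1.57, 0.80 and -1.90 on the mutant arrays and at 2.87, 2.17 and -2.13 on the wild-type arrays. On wild-type replicate 3 the remaining lists stood at -0.11 for osteoblasts, -0.15 for osteoclasts, 0.051 for chondrocytes, 0.079 for blood and immune cells and 0.19 for erythroid cells, each below the highest array of its list. The summed intensity of the cell division markers was 252.9 to 408.1 in mutant and 365.1 to 578.2 in wild-type bone, and that of the epidermal markers 51.3 to 460.4 in mutant and 47.3 to 1798 in wild-type bone. Of these lists 3 of 8 muscle, 0 of 8 cell division and 0 of 6 epidermal markers had higher means in mutant bone.

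**Figure D4:**
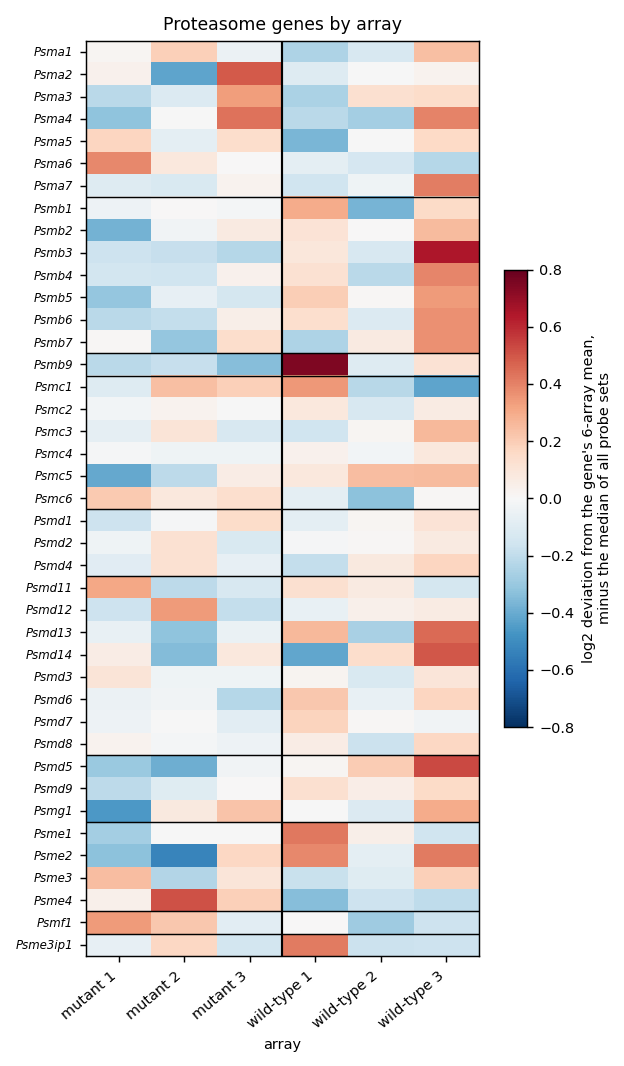
Log2 deviation of each of the 41 genes on each array from its mean over the 6 arrays, after the median of all probe sets was taken off. From the top, lines separate alpha ring, beta ring, inducible beta, base ATPases, base non-ATPases, lid, chaperones, activators, inhibitor and Psme3ip1. The column of wild-type replicate 3 is mostly red. After median centring of the arrays, which is not quite the scale shown, it was the highest array for 22 of the 41 genes.

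For 5 members the table held more than 1 probe set. The identifiers of this array's probe sets run in genome order. For 98.6% of 5446 genes with a single probe set, the commonest chromosome among the 10 nearest named identifiers was the gene's own. By this measure 6 of the 47 probe sets of the members lay among genes of another chromosome, all of them in Psma3, Psma5, Psmb3, Psmc1 and Psmd2, which each had another probe set in the expected place. Such probe sets may read near-identical copies, so the levels of these genes are uncertain. In Psma3 the brightest probe set, used here, was 1 of these: it lay among genes of chromosome 6, while Psma3 is on chromosome 12 of GRCm38.p6. Its log2 difference was 0.069, and that of the probe set among genes of chromosome 12 was 0.12. In Psmc1 the difference was 0.28 on the probe set used and -0.10 on the other, whose neighbours lay on chromosome 16.

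Of 34 genes that build, regulate or feed the proteasome, 16 were measured. Mean log2 intensity was higher in mutant bone for 13 of these, against 56.7% of all probe sets. None passed the test (limma, 0 of 16), and the median log2 difference was 0.18. Both depended on wild-type replicate 1, without which 9 of 16 were higher and the median was 0.023. After median centring 12 of 16 were higher (median 0.12), and with array weights 8 of 16 (-0.020). Ecpas, which binds and surveys assembled proteasomes, was at 52.8, 44.9 and 41.6 in mutant bone, against 17.4, 33.4 and 35.0 in wild-type bone. All mutant arrays lay above all wild-type arrays, and the log2 difference was 0.76 ± 0.28 (SE, limma adjusted p = 0.659). Nfe2l1, the transcription factor that raises proteasome genes when the protease is impaired, was at 131.5, 120.1 and 106.7 in mutant bone, against 64.4, 105.3 and 109.4 in wild-type bone. Mutant replicate 3 overlapped the wild-type arrays, of which replicate 1 was the lowest. The log2 difference was 0.39 ± 0.25 (SE, limma adjusted p = 0.725). Named after their values were seen, Pomp, the assembly factor of the core, was at -0.30 ± 0.22 and Sem1, the smallest lid subunit, whose symbol lies outside the rule for members, at -0.078 ± 0.22.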

How the data were processed

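The values deposited by the authors were array intensities, linear and summarised to 1 per probe set and array. No label or file header records the background correction, the summarisation or the scaling. Every probe set in the table reached 20 on at least 3 of the 6 arrays, which no label explains. Probe sets were named from the platform annotation: 6398 of 8997 had exactly 1 symbol, 576 several and 2023 none, and 0 symbols needed an update in RefSeq of GRCm38.p6.

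Intensities were taken to log2, and counts of higher or lower means refer to means of log2 intensity. lmFit and eBayes of limma 3.58.1 (R 4.3.3) estimated both group means over all 8997 probe sets. Its two-sided p-values were corrected with the Benjamini-Hochberg method over the whole table, at a threshold of 0.05. The fit was first tested on simulated data. No pair of arrays was identical. Classes were described by counts and medians, without a test.

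The members, lists, tests and naming rule were chosen with earlier results of these data known. In each class, values on all arrays are given for the 2 genes of smallest p, and also for Psmb5, Psmb6, Psmb7, Psmd4 and Psmd14. Of the related genes, the 2 of smallest p are given. Alternatives changed the scaling (quantile, median centring), the filter on dim probe sets, the variance model, the array weights, the pairing by replicate number, the probe sets behind a gene and the arrays kept. Chosen after seeing the data were the rings as classes, the related genes under these alternatives, the distances between classes on single arrays, another probe set for Psma3, and median centring combined with leaving out wild-type replicate 1. Tables and plots were made with Python 3.11.15, pandas 2.3.3 and matplotlib 3.10.9. With 3 arrays per group, precision is limited by their number.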

Additional observations from a re-analysis of the deposited data

How the results depend on the processing

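No member passed limma's adjusted threshold under any of the 15 changes of processing (smallest adjusted p 0.178, Psmd5 with array weights). Over all probe sets, limma called 0 with all arrays (669 at an unadjusted p under 0.05), 4 with array weights, and from 0 to 15 with each array left out, the 15 without mutant replicate 3. Of the 41 members 17 kept the direction of their difference under every one of these settings that tested them: Psma6, Psmb2, Psmb3, Psmb5, Psmb6, Psmb9, Psmc1, Psmc5, Psmc6, Psmd5, Psmd6, Psmd9, Psmd13, Psme1, Psme2, Psme4 and Psmf1.

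The number of the 32 subunits with higher means in mutant bone was 19 with all arrays. It was 12 after quantile normalization, 10 after median centring and 4 with array weights. With 1 array left out it ran from 5 (without wild-type replicate 1) to 23 (without wild-type replicate 3). The whole table moved as well: the median over all probe sets was -0.0265 with array weights, -0.033 without wild-type replicate 1 and 0.11 without wild-type replicate 3. The median difference of the alpha ring was -0.15 with array weights. Without mutant replicate 3 it was -0.083. Of the 16 related genes, 13 higher with all arrays, 8 were higher with array weights. The medians of core, base and lid moved by less than the SD of their uncentred values between replicates, which holds the offset of whole arrays, but they were not always on 1 side of 0: with 1 array left out, the core ranged from -0.21 to 0.16, the base from -0.085 to 0.15 and the lid from -0.076 to 0.074.

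The log2 differences of members that changed sign with array weights were Psma1 -0.0060, Psma2 -0.15, Psma3 -0.18, Psma4 -0.15, Psma5 -0.061, Psmb1 -0.014, Psmc2 -0.014, Psmc3 -0.16, Psmc4 -0.091, Psmd1 -0.10, Psmd2 -0.032, Psmd4 -0.11, Psmd11 -0.035, Psmd3 -0.038, Psmd8 -0.075 and Psme3 -0.14. After quantile normalization they were Psmb1 -0.037, Psmc3 -0.046, Psmc4 -0.042, Psmd2 -0.017, Psmd4 -0.020, Psmd11 -0.015, Psmd12 -0.023 and Psme3ip1 -0.033. After median centring they were Psmb1 -0.024, Psmc3 -0.052, Psmc4 -0.040, Psmd1 -0.0061, Psmd2 -0.017, Psmd4 -0.014, Psmd11 -0.014, Psmd12 -0.0044, Psmd8 -0.010 and Psme3ip1 -0.025. Averaging the probe sets of a gene turned Psmd2 -0.013. With 1 array left out, the members that changed sign ranged as follows: Psma1 -0.033 to 0.37, Psma2 -0.12 to 0.38, Psma3 -0.17 to 0.19, Psma4 -0.083 to 0.41, Psma5 -0.028 to 0.39, Psma7 -0.28 to 0.16, Psmb1 -0.12 to 0.15, Psmb4 -0.23 to 0.083, Psmb7 -0.30 to 0.16, Psmc3 -0.20 to 0.17, Psmc4 -0.085 to 0.095, Psmd1 -0.098 to 0.15, Psmd2 -0.080 to 0.12, Psmd4 -0.16 to 0.17, Psmd11 -0.11 to 0.16, Psmd12 -0.11 to 0.14, Psmd14 -0.42 to 0.20, Psmd3 -0.0053 to 0.19, Psmd7 -0.065 to 0.0048, Psmd8 -0.036 to 0.17, Psmg1 -0.20 to 0.17, Psme3 -0.040 to 0.30 and Psme3ip1 -0.044 to 0.12. The cause was not tested.

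The labels speak of pairs of littermates but do not tie the replicate numbers to litters. Deviations of same-numbered samples correlated at -0.11, -0.026 and 0.32 over all probe sets, and not every sample correlated best with its own number. With so few arrays per group, these correlations cannot decide whether the numbers mark littermates, and the pairing remains unknown. The fit with the replicate number as a block gave 0 calls, with 445 higher and 236 lower probe sets at an unadjusted p under 0.05, against 516 and 153 without it, and changed the direction of no member. Signal limits the dim members: Psmc6, Psmd14, Psmd5, Psmg1 and Psme2 had arrays under 20.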
